A study of Homo sapiens with 6 samples.

Results

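The genes described here carry LINC symbols, the names given to long intergenic non-coding RNAs, and had reads enough to be measured in MDA-MB-231 cells, a human breast cancer line that lacks hormone receptors and has mesenchymal features. They were chosen by type, name and read number: rows of the authors' count table typed lncRNA, with a symbol made of LINC and digits, and with a mean of 30 or more raw reads over the 6 libraries. The rule gave 128 rows with 127 symbols, of 1544 LINC rows typed lncRNA, 12045 lncRNA rows and 39323 rows in all. Cells were transfected with a small interfering RNA duplex against SF3B6 (siSF3B6, 3 libraries) or with a non-targeting duplex (siNC, 3 libraries), and polyadenylated RNA was sequenced by a strand-specific protocol. Neither group carried another alteration in the labels, and a single duplex represented the knockdown. The design text calls the replicates biological, but no label names separate cultures, so the p-values reflect only how much these 6 libraries vary. No time after transfection is given in the sources used here.

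LINC symbols are catalogue names for lncRNA genes that lie apart from coding genes and mostly have no assigned function. Such RNAs are made by RNA polymerase II, and many are spliced and polyadenylated like messenger RNAs, but they encode no known protein. They are as a class less abundant and more restricted to single tissues than messenger RNAs, and some start beside a coding gene and share its promoter region. SF3B6 encodes a small protein of the SF3b complex, through which the U2 snRNP recognises the branch point of introns, and the study asked what this subunit does in these cells.

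SF3B6 itself had 22.5, 25.02 and 21.3 CPM (reads scaled to library size with TMM factors) in the siSF3B6 libraries, against 86.4, 80.5 and 102 CPM in the siNC libraries. Its log2 fold change was -1.96 ± 0.104 (SE), with an edgeR adjusted p of 1.43e-07. An exact permutation test over the 6 libraries (two-sided) returned p = 0.1, which is the smallest it can return here. The siSF3B6 libraries held 30684131, 38546037 and 31326673 gene reads, and the siNC libraries held 29627499, 28504091 and 33754386. siNC replicate 3 stood apart within its group. Averaged over genes, the chi-square between its counts and those of its group was 67.5 (replicate 1) and 54.1 (replicate 2), against 3.49 between siNC replicates 1 and 2. Between siNC replicate 3 and siSF3B6 replicates 1 to 3 it was 38.4, 38.5 and 62.3. No pair of libraries within a group agreed within sampling noise, the lowest such value being 2.30, between siSF3B6 replicates 1 and 2. Genes of the mitochondrial genome held 10.8%, 10.6% and 11.8% of reads in siSF3B6 replicates 1 to 3, against 3.38%, 3.93% and 9.07% in siNC replicates 1 to 3. The mesenchymal markers VIM, CD44 and AXL were abundant, and ESR1 and PGR averaged at most 0.225 CPM in either group. The epithelial marker EPCAM averaged 22.8 ± 1.09 CPM in siSF3B6 and 10.7 ± 0.711 CPM in siNC libraries (SD, n = 3 each; edgeR adjusted p = 4.03e-06). CDH1, also an epithelial marker, averaged 6.63 CPM in siSF3B6 and 4.50 CPM in siNC libraries (log2 fold change 0.56, edgeR adjusted p = 0.00697). The 4 markers of other cell types (PTPRC, PECAM1, ALB and COL1A1) summed to 14.1 to 17.8 CPM in the siSF3B6 libraries and to 13.6 to 17.4 CPM in the siNC libraries, with ALB near 0 in both. Of the 4, PTPRC was higher (1.14 CPM in siSF3B6 and 0.561 CPM in siNC libraries, edgeR adjusted p = 0.0293) and PECAM1 lower (7.23 CPM in siSF3B6 and 9.18 CPM in siNC libraries, edgeR adjusted p = 0.0332). The part of these differences in the results below was not tested.

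The LINC rows had few reads. Their mean read number had a median of 95.1 and ran from 30 to 2766, with 69 of the 128 rows under 100 reads and 2 at or above 1000. Per length, their mean level had a median of 0.606 FPKM (fragments per kilobase scaled to library size, as deposited), 41 rows reached 1 FPKM and 55 stayed under 0.5 FPKM. Together they took between 0.0782% and 0.0813% of all reads in each of the 6 libraries. The share was 0.0789%, 0.0782% and 0.0813% in siSF3B6 replicates 1 to 3, against 0.0793%, 0.0806% and 0.0800% in siNC replicates 1 to 3, so the groups overlapped. All reads here include those of the mitochondrial genome, whose share differed between libraries as given above. Shares without them were not computed. Just inside the threshold lay LINC00601 (30 reads), LINC02709 (30.2 reads) and LINC00842 (30.8 reads), and just outside it LINC02067 (29.3 reads), LINC00852 and a second LINC01605 row (29.7 reads each). The median row had 4 exons, and 14 rows had 1 exon. GENCODE release 29 types 102 of the 128 rows as lincRNA, and the other 26 go under other types, so not all rows are intergenic lncRNAs in that annotation. Those 26 are 14 processed transcripts, 6 antisense, 2 sense intronic, 2 bidirectional promoter and 1 sense overlapping RNA (LINC00622), and 1 coding gene (LINC02693, there C17orf51). Of the 26 rows, 9 were among the called rows given below, and 17 of the 128 rows overlap a coding gene.

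LINC rows below that threshold differed in read number between libraries. The 1416 such rows averaged 1.82, 2.42 and 1.98 reads in siSF3B6 replicates 1 to 3, against 3.04, 3.34 and 2.21 reads in siNC replicates 1 to 3. In number, 340, 366 and 335 LINC rows held 1 to 9 reads in the siSF3B6 libraries, against 875, 948 and 322 in the siNC libraries. siNC replicate 3 thus lay with the siSF3B6 libraries and apart from the other siNC libraries. All 128 rows above the threshold had reads in every library, the lowest being 12 reads.

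The most abundant row per length was LINC00973, with 24.5, 23.8 and 25.7 FPKM in the siSF3B6 libraries, against 12.5, 12 and 15.5 FPKM in the siNC libraries. Next came LINC00261, a lncRNA that lies 2363 bases from FOXA2, a transcription factor gene of endoderm, and that is known for its part in endoderm differentiation. LINC00261 had 11.9, 12.2 and 12.1 FPKM in the siSF3B6 libraries, against 13.8, 13.6 and 15 FPKM in the siNC libraries. The groups of LINC00261 did not overlap, but its difference did not pass the test (log2 fold change -0.18, edgeR adjusted p = 0.0744), and 86.1% of its exonic bases are shared with other annotated genes on the same strand. LINC01116 averaged 10.0 FPKM over the 6 libraries and had a log2 fold change of -0.00 ± 0.0861 (SE). Below it followed LINC00941 (8.31 FPKM), LINC02574 (7.74 FPKM), LINC01357 (6.50 FPKM), LINC01003 (4.47 FPKM) and LINC00996 (4.43 FPKM). The LINC00941 row at that level shares all of its exonic bases with other genes on the same strand, among them a second row of the same symbol, so reads could be divided between the rows. Neither LINC00941 row passed the test (log2 fold changes 0.02 and 0.25). LINC01357 shares 68.1% of its exonic bases with genes on the opposite strand, and whether the authors counted by strand is not given in the sources used here.

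Between the groups, 20 of the 128 LINC rows were higher and 14 lower in siSF3B6 libraries at an edgeR adjusted p under 0.05, the p being adjusted over all 16869 genes tested. That is 26.6% of the rows, against 40.8% of all genes tested. By direction, 20.8% of all genes were called higher and 20.0% lower. The split between directions changed with the scaling, here library size alone in place of TMM factors. The median of all genes then shifted by -0.10 on the log2 scale, and the split of the LINC rows became 16 higher and 26 lower. The split of all genes became 2459 higher and 4558 lower. The median log2 fold change of the LINC rows was 0.02 (interquartile range -0.29 to 0.34), against 0.00 for all genes. In 58 rows the siSF3B6 and siNC values did not overlap, which is 45.3% of the rows against 52.1% of all genes. All 34 called rows were among the 58, and the other 24 did not pass. A called difference of at least 2-fold was found in 5 rows (3.91%), against 4.03% of all genes. Of these 5, LINC00865, LINC00622 and LINC00115 averaged 17, 20.3 and 25.3 reads in the siNC libraries. They met the mean of 30 reads through the siSF3B6 libraries, so the read rule favoured rows that were high there. Among the called rows, 4 averaged under 30 reads in the siNC libraries and 1 in the siSF3B6 libraries. In these bulk libraries, fewer cells that hold an RNA and less of that RNA per cell cannot be told apart.

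**Figure D1:**
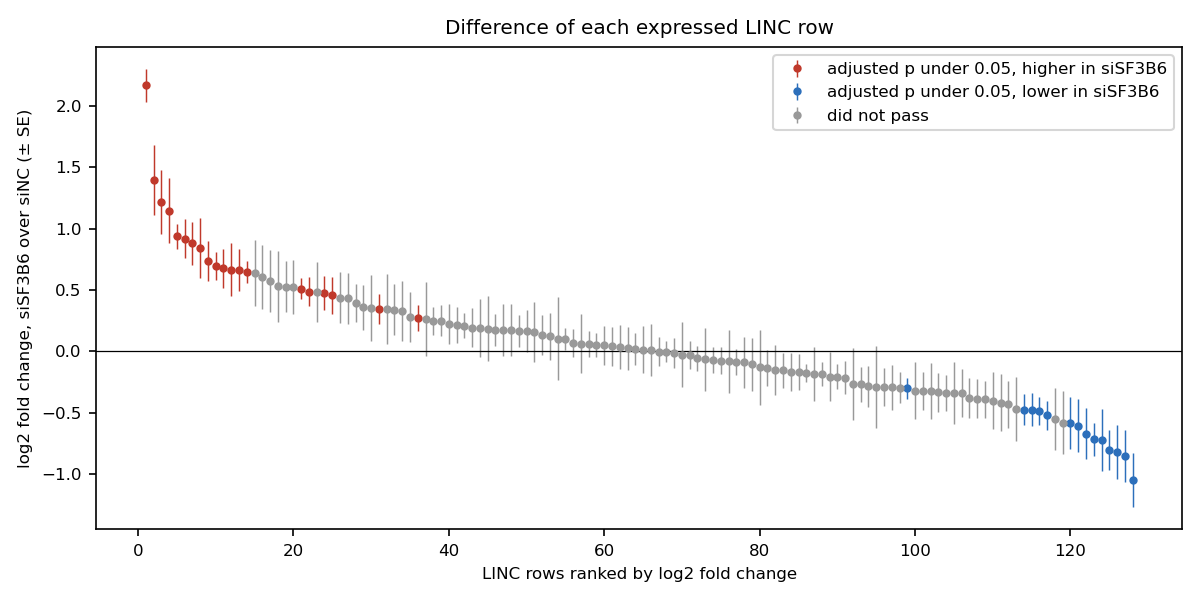
Log2 fold change of each of the 128 LINC rows, siSF3B6 over siNC, ranked from the highest to the lowest, with bars of 1 SE; red and blue points passed the test as higher and lower in siSF3B6, and grey points did not pass. LINC02574 stands alone at 2.16, and the interquartile range of the rows is -0.29 to 0.34.

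These shares were larger at higher read depth. Among LINC rows with 30 to under 100 mean reads, 14 of 69 were called (20.3%), against 25.5% of the other genes in that range. From 100 to under 300 reads, 10 of 33 were called (30.3%), against 39.7% of the other genes. At 300 reads or more, 10 of 26 were called (38.5%), against 51.5%. Depth was not matched within these ranges. Mean reads had medians of 48, 141 and 511 in the LINC rows, against 51.6, 180 and 1367 in the other genes. The median SE of the log2 fold change was 0.171 over the LINC rows and 0.111 over all genes. Other lncRNAs with 30 or more reads gave shares of the same order: 84 of 292 antisense lncRNAs (28.8%) and 295 of 968 remaining lncRNAs (30.5%), against 48.1% of 12501 coding genes. Mean reads had medians of 94.25, 80 and 969 in these 3 classes, against 95.1 in the LINC rows. These are descriptions of the rows, and no test of the difference between the classes was made.

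**Figure D2:**
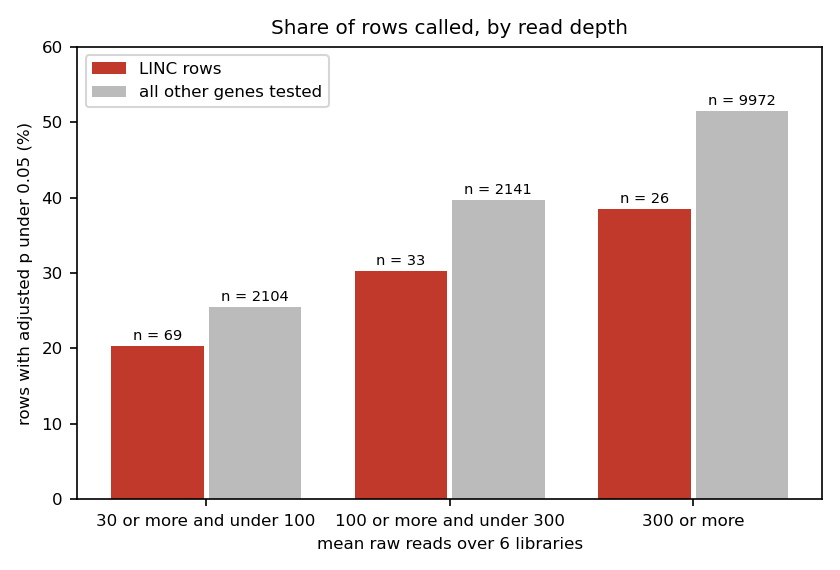
Percentage of rows with an edgeR adjusted p under 0.05 in 3 ranges of mean raw reads, for the LINC rows (red) and all other genes tested (grey), with the number of rows above each bar. The LINC rows were called in 20.3%, 30.3% and 38.5% of cases, and other genes in 25.5%, 39.7% and 51.5%. Within each range the other genes had the higher median of mean reads.

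The number of calls moved with the siNC libraries used. Without siNC replicate 3, 25 rows were higher and 13 lower, and without siNC replicate 1, 15 were higher and 9 lower. With it as the lone control, assumed to vary like the siSF3B6 libraries, 8 were higher and 3 lower, and 13.8% of all genes were called. In all 34 called rows the siSF3B6 and siNC values did not overlap, so siNC replicate 3 already lay on the called side. That each kept its sign against this lone control was therefore set by the calls and is no separate support. Across the 19 alternative settings, 9 rows passed in every setting that gave them a value: LINC02574, LINC00622, LINC00973, LINC02228, LINC01011, LINC01088 and LINC00667 as higher, and LINC00857 and LINC01963 as lower. All settings use the same libraries, so this is no separate support. LINC00622 met the read rule through the siSF3B6 libraries, and LINC02574 was known to differ when the rows were chosen.

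**Figure D3:**
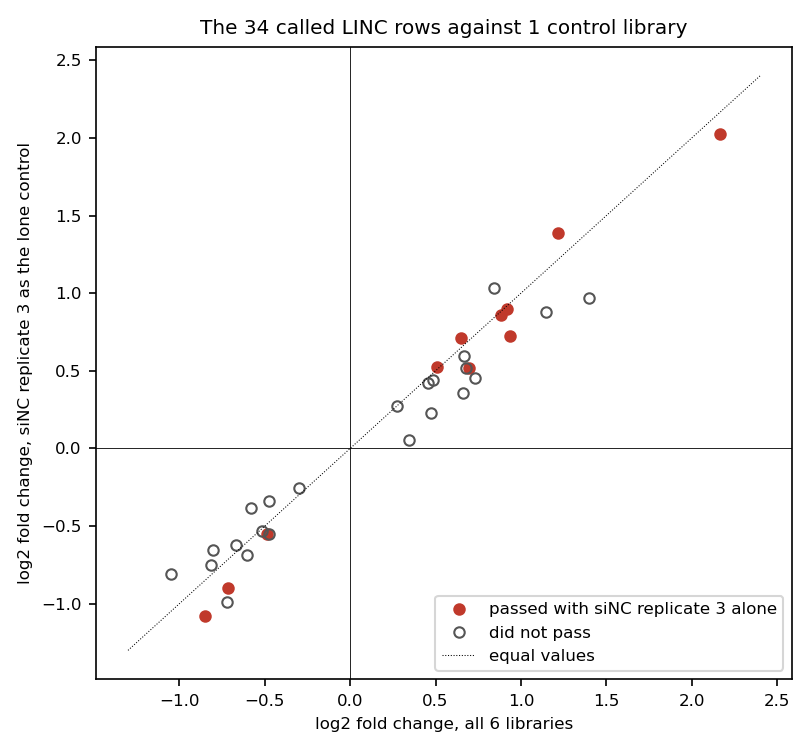
Log2 fold change of the 34 called LINC rows when siNC replicate 3 is the lone control (vertical axis), plotted over that from all 6 libraries (horizontal axis); filled points passed the test with the lone control and the dotted line marks equal values. All 34 points lie in the quadrants of equal sign, which follows from the groups not overlapping in any called row.

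LINC02574 rose the most. The gene (also named HEAL in RefSeq) has 2 exons at chr1:27660328-27662722, minus strand (GRCh38, GENCODE release 29), and overlaps no exon of another gene. Its levels were 28.2, 30.7 and 21.8 CPM in the siSF3B6 libraries, against 5.42, 6.03 and 6.55 CPM in the siNC libraries. Every siSF3B6 library was above every siNC library, and siNC replicate 3 was close to the other siNC libraries. The log2 fold change was 2.16 ± 0.134 (SE), edgeR adjusted p = 4.91e-07, a 4.48-fold difference of 26.9 ± 4.58 CPM in siSF3B6 and 6.0 ± 0.567 CPM in siNC libraries (SD, n = 3 each). Against siNC replicate 3 alone it was 2.03 (edgeR adjusted p = 0.000256). LINC02574 was known to differ in these data when the rows were chosen. Its nearest coding gene is IFI6, which encodes an interferon-induced protein and lies on the same strand with its 3' end 3339 bases before the start of LINC02574. IFI6 had 74.2, 68.3 and 53.8 CPM in the siSF3B6 libraries, against 20.2, 20.8 and 15.4 CPM in the siNC libraries. IFI6 rose (log2 fold change 1.80, SE 0.133, edgeR adjusted p = 1.22e-06), again with no overlap between the groups, and had a log2 fold change of 2.07 against siNC replicate 3 alone (edgeR adjusted p = 0.00016).

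The promoter windows of this pair are shown since the genes lie side by side and moved together. Windows run from 250 bases before to 50 bases after the gene start in RefSeq (GRCh38.p14), 5′ to 3′, with capitals marking the interferon-response core, read here as GAAA, any 2 bases, then GAAA, on either strand.
LINC02574, chr1:27662673-27662972, minus strand: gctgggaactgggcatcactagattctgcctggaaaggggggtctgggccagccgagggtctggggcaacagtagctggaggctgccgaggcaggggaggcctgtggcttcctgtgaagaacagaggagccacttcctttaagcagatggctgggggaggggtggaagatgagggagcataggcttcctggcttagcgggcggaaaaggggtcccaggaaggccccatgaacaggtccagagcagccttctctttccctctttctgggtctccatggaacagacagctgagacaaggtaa
IFI6, chr1:27672143-27672442, minus strand: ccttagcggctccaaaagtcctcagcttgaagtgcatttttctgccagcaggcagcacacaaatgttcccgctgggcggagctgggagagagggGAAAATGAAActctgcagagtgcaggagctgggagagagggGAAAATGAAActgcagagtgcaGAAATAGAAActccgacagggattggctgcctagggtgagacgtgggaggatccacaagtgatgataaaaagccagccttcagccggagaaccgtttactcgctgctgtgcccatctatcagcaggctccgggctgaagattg
The IFI6 window held the core 3 times, beginning 156, 115 and 93 bases before the start, and these letters were not in the LINC02574 window. Of all 35116 windows in the table, 3.57% held it. Windows were found for 93 of the 127 LINC symbols, and 2 of those held the core (LINC00623 and LINC01138), neither of which was called.

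Among the 10 largest higher rows, LINC00973 had the most reads, with a mean of 701. It has 2 exons at chr3:98981058-98983096, plus strand. LINC00973 had 28.5, 27.7 and 29.95 CPM in the siSF3B6 libraries, against 14.1, 13.7 and 17.2 CPM in the siNC libraries, and the groups did not overlap. Its log2 fold change was 0.94 ± 0.102 (SE), edgeR adjusted p = 1.96e-05, and 0.72 against siNC replicate 3 alone. siNC replicate 3 was the highest of the siNC libraries. Its nearest coding gene, DCBLD2, encodes a transmembrane protein of the cell surface, starts 79369 bases away and is transcribed in the opposite direction. DCBLD2 had 256, 248 and 291 CPM in the siSF3B6 libraries, against 151, 152 and 154 CPM in the siNC libraries, and rose (log2 fold change 0.80, SE 0.0817, edgeR adjusted p = 1.19e-05).

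LINC00511, a long gene of 9 exons at chr17:72290091-72640472, minus strand, that is often described as raised in tumours, had 25, 23.1 and 25.4 CPM in the siSF3B6 libraries, against 15.8, 16.2 and 14.8 CPM in the siNC libraries. It rose (log2 fold change 0.65, SE 0.0897, edgeR adjusted p = 1.08e-04). LINC00667 rose to 24.6 ± 0.732 CPM in siSF3B6, against 17.3 ± 0.680 CPM in siNC libraries (SD, n = 3 each; log2 fold change 0.51, edgeR adjusted p = 4.47e-04), and 25.3% of its exonic bases are shared with the opposite strand. LINC01088 had 10.7, 10.9 and 10.1 CPM in the siSF3B6 libraries, against 6.35, 5.90 and 7.32 CPM in the siNC libraries, a log2 fold change of 0.70 ± 0.117 (SE), edgeR adjusted p = 4.32e-04. In these 3 genes no siSF3B6 library was as low as any siNC library. LINC00472, whose higher level is known to go with better outcome in breast cancer, had 37.6, 34.3 and 49.1 CPM in the siSF3B6 libraries, against 28.5, 28.4 and 29.5 CPM in the siNC libraries. Its log2 fold change was 0.49 ± 0.117 (SE), edgeR adjusted p = 0.00473, and siSF3B6 replicate 3 lay well above the other siSF3B6 libraries.

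Several of the largest folds came from rows with few reads. LINC00865 averaged 1.42 ± 0.222 CPM in siSF3B6 and 0.531 ± 0.164 CPM in siNC libraries (SD, n = 3 each), a log2 fold change of 1.40 ± 0.285 (SE), edgeR adjusted p = 0.00168. Of its exonic bases, 40.3% are shared with the opposite strand. LINC00622, a row of 1 exon, averaged 1.49 ± 0.207 CPM in siSF3B6 and 0.643 ± 0.137 CPM in siNC libraries (log2 fold change 1.22, SE 0.258, edgeR adjusted p = 0.00215). LINC00115 averaged 1.78 ± 0.462 CPM in siSF3B6 and 0.797 ± 0.174 CPM in siNC libraries (log2 fold change 1.15, SE 0.265, edgeR adjusted p = 0.00366). These rows and LINC01311 (log2 fold change 0.84) were 4 of the 8 rows that fell short of 30 reads on average in the siNC libraries, so they met the mean of 30 through the siSF3B6 libraries. Against siNC replicate 3 alone, the log2 fold changes were 1.39 in LINC00622, 0.97 in LINC00865 and 0.88 in LINC00115. These values come from the same libraries and are no separate support.

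**Figure D4:**
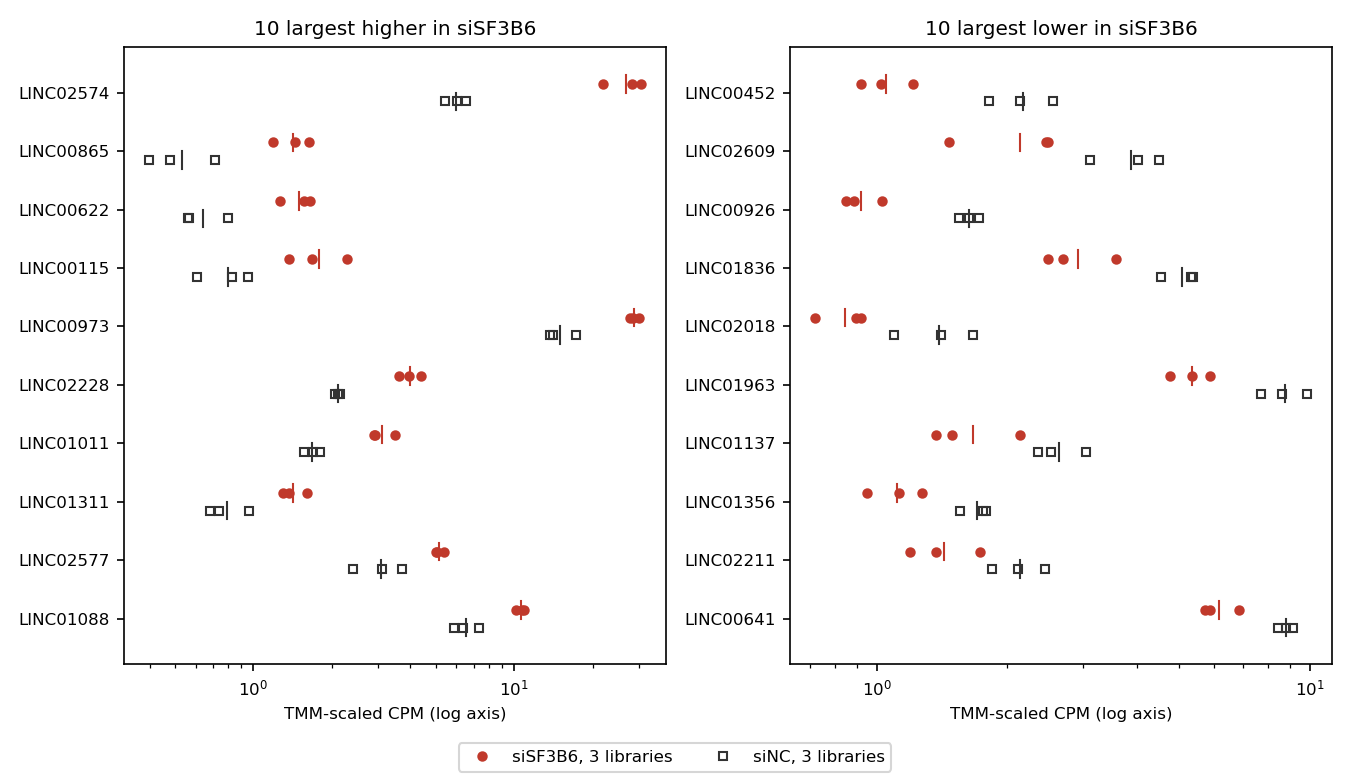
TMM-scaled CPM of the 10 LINC rows with the largest higher (left) and the 10 with the largest lower (right) called differences, on log axes; filled circles are the siSF3B6 libraries, open squares the siNC libraries, and vertical marks the group means. The rows were chosen among called rows whose circles and squares do not overlap, and most rows lie under 10 CPM.

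The remaining higher rows had smaller differences. LINC02228 (log2 fold change 0.92), LINC01011 (0.88) and LINC02577 (0.73) complete the 10 largest. The others were LINC01929 (0.68), LINC00460 (0.66), LINC01106 (0.66), LINC00702 (0.47), LINC00654 (0.46), LINC01278 (0.35) and LINC00996 (0.27). In LINC01278, siNC replicate 3, at 26.6 CPM, lay just below the lowest siSF3B6 library, at 26.7 CPM, and with it as the lone control the log2 fold change was 0.06 (edgeR adjusted p = 0.824).

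On the lower side, LINC00452 fell the most. It has 8 exons at chr13:113888306-113923512, plus strand, and had 1.02, 0.920 and 1.21 CPM in the siSF3B6 libraries, against 2.15, 2.55 and 1.82 CPM in the siNC libraries. Its log2 fold change was -1.05 ± 0.218 (SE), edgeR adjusted p = 0.0019. LINC02609 had 2.48, 2.46 and 1.47 CPM in the siSF3B6 libraries, against 3.11, 4.01 and 4.50 CPM in the siNC libraries (log2 fold change -0.85, SE 0.210, edgeR adjusted p = 0.00554), and siSF3B6 replicate 3 was the lowest of its libraries. LINC00926 averaged 0.921 ± 0.0947 CPM in siSF3B6 and 1.64 ± 0.0874 CPM in siNC libraries (SD, n = 3 each; log2 fold change -0.82). LINC01836 averaged 2.91 ± 0.571 CPM in siSF3B6 and 5.07 ± 0.474 CPM in siNC libraries (log2 fold change -0.80), and lies 11995 bases before PTBP1, which encodes a splicing repressor. PTBP1 itself did not pass the test (log2 fold change -0.07). In all 4 rows the groups did not overlap, as in every called row.

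LINC01963, a row of 1 exon of 3148 bases at chr2:216217045-216220192, plus strand, had 4.77, 5.36 and 5.89 CPM in the siSF3B6 libraries, against 7.73, 8.65 and 9.88 CPM in the siNC libraries. It fell by 0.71 on the log2 scale (SE 0.133, edgeR adjusted p = 8.92e-04), and by 0.90 against siNC replicate 3 alone. The gene lies 10742 bases beyond the 3' end of XRCC5, which encodes the Ku80 subunit of the DNA end-joining machinery and did not pass the test (0.04). LINC00857, studied chiefly in lung cancer, had 7.56, 9.18 and 7.32 CPM in the siSF3B6 libraries, against 11.2, 10.9 and 11.7 CPM in the siNC libraries (log2 fold change -0.48, SE 0.116, edgeR adjusted p = 0.00449). LINC00641 averaged 6.16 ± 0.617 CPM in siSF3B6 and 8.82 ± 0.358 CPM in siNC libraries (log2 fold change -0.52), and lies 2236 bases from HNRNPC, which encodes a nuclear RNA-binding protein and did not pass (0.15). The other lower rows were LINC02018 (-0.72), LINC01137 (-0.67), LINC01356 (-0.60), LINC02211 (-0.58), LINC00342 (-0.47), LINC01003 (-0.47) and LINC02693 (-0.30). LINC02018 averaged under 30 reads in the siSF3B6 libraries.

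Part of the calls ended when 1 library was left out. Of the 34 called rows, 22 passed with any 1 library left out, and 12 did not: 6 higher and 6 lower. LINC01278, LINC00996, LINC01356 and LINC02018 lost the call under 5 of the 6 omissions, with largest edgeR adjusted p-values of 0.177 (without siNC replicate 1), 0.15 (without siNC replicate 2), 0.105 (without siNC replicate 1) and 0.114 (without siNC replicate 3). LINC00460 and LINC02211 lost it under 4, with 0.0943 (without siSF3B6 replicate 1) and 0.156 (without siNC replicate 2). LINC00702, LINC00654, LINC02693 and LINC01137 lost it under 3, with 0.0727 (without siNC replicate 1), 0.115 (without siSF3B6 replicate 1), 0.0608 (without siNC replicate 1) and 0.0933 (without siNC replicate 1). LINC01311 and LINC00342 lost it under 2, with 0.0588 (without siSF3B6 replicate 1) and 0.0674 (without siSF3B6 replicate 2).

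Of 20 LINC symbols often studied in cancer, listed from general knowledge and without LINC02574, 12 met the read threshold, 5 fell below it and 3 were not analysed here. LINC00511, LINC00460 and LINC00472 were higher and LINC00857 was lower, which is 33.3% of the 12, against 26.6% of the LINC rows and 40.8% of all genes tested. The other 8 did not pass: LINC00205 had a log2 fold change of 0.21, LINC00662 of 0.05, LINC01116 of -0.00, LINC00665 of -0.01, LINC00467 of -0.05, LINC00963 of -0.09, LINC00842 of -0.13 and LINC00339 of -0.27. Their standard errors ran from 0.0861 (LINC01116) to 0.308 (LINC00842). LINC00707, with 14.8 mean reads, fell below the threshold, and LINC00958, LINC01133, LINC01614 and LINC01705 had fewer.

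LINC rows on opposite strands overlapped each other in 5 pairs. LINC02228 (minus strand) and LINC02211 (plus strand) start head to head on chromosome 5 and share the interval chr5:25187800-25190956. LINC02228 had 4.39, 3.63 and 3.96 CPM in the siSF3B6 libraries, against 2.05, 2.15 and 2.11 CPM in the siNC libraries, and rose (log2 fold change 0.92, SE 0.156, edgeR adjusted p = 4.74e-04). LINC02211 had 1.74, 1.19 and 1.37 CPM in the siSF3B6 libraries, against 2.12, 2.45 and 1.85 CPM in the siNC libraries, and its log2 fold change was -0.58 ± 0.211 (SE), edgeR adjusted p = 0.0407. The genes thus moved in opposite directions, though the call of LINC02211 ended without siNC replicate 2 and under 3 other omissions. LINC01356 and LINC01357 overlap at their starts at chr1:112850028-112850643. LINC01356 fell (-0.60), and LINC01357 had a log2 fold change of -0.29 that did not pass (edgeR adjusted p = 0.0812). LINC00667, which rose, overlaps LINC00526 at chr18:5237826-5238598, and LINC00526 had a log2 fold change of -0.34 (edgeR adjusted p = 0.313). LINC00115, which rose, lies within LINC01128 at chr1:826206-827522, and LINC01128 had a log2 fold change of -0.18 (edgeR adjusted p = 0.15). LINC01116 and LINC01117 overlap at chr2:176637710-176637931, and neither passed (log2 fold changes -0.00 and -0.55).

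The nearest coding gene was taken from the deposited coding rows by GENCODE 29 positions, with no limit of distance. The coding neighbour was upstream on the same strand for 43 rows, divergent for 29, downstream on the same strand for 20, convergent for 19 and overlapping for 17. A tested neighbour existed for 107 of the 128 rows (102 distinct genes). Of those pairs, 44 had a called neighbour (41.1%, against 45.7% of all coding genes tested). Both genes were called in 12 pairs, 6 in the same and 6 in opposite directions, the row alone in 14, the neighbour alone in 32, and neither in 49. Across the 107 pairs Pearson's r between the log2 fold changes was 0.11 and Spearman's rho -0.00, and 52 pairs had the same sign. These pairs share libraries and some share a neighbour, so the correlation is a description. Within 10 kb, 50 pairs remained, of which 1 was called in the same and 4 in opposite directions.

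**Figure D5:**
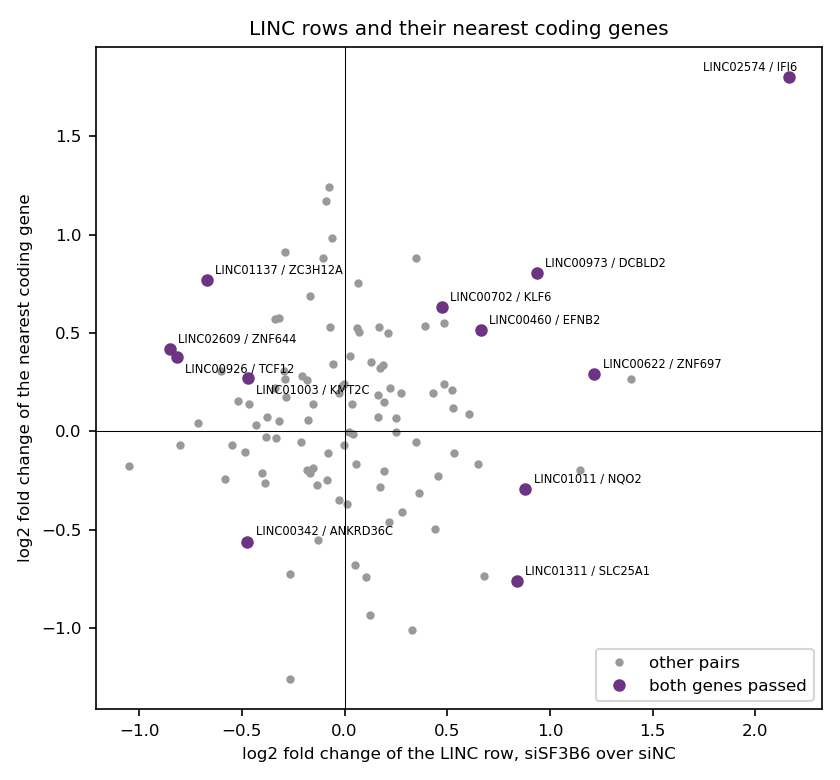
Log2 fold change of the nearest coding gene (vertical axis) against that of the LINC row (horizontal axis), siSF3B6 over siNC, for the 107 pairs tested; purple points are the 12 pairs in which both genes passed, with their names. The purple points fall equally into quadrants of the same sign (6) and of opposite sign (6), and LINC02574 with IFI6 lies farthest from the centre.

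Pairs that rose together were, beside LINC02574 with IFI6 and LINC00973 with DCBLD2, LINC00622 with ZNF697, LINC00460 with EFNB2 and LINC00702 with KLF6. EFNB2, which encodes a membrane-bound ephrin ligand, had 52.2, 49.98 and 58.8 CPM in the siSF3B6 libraries, against 39.3, 35.1 and 38.2 CPM in the siNC libraries (log2 fold change 0.52). LINC00460 lies 105416 bases away, and had 2.04, 1.52 and 1.93 CPM in the siSF3B6 libraries, against 1.22, 1.03 and 1.19 CPM in the siNC libraries (log2 fold change 0.66, SE 0.215, edgeR adjusted p = 0.0239). KLF6, a zinc finger transcription factor gene, had 226, 220 and 236 CPM in the siSF3B6 libraries, against 151, 144 and 145 CPM in the siNC libraries (log2 fold change 0.63), at a distance of 415860 bases from LINC00702, which had 7.49, 7.82 and 8.76 CPM in the siSF3B6 libraries, against 4.97, 5.53 and 6.79 CPM in the siNC libraries. In each of these genes the siSF3B6 libraries lay above the siNC libraries. LINC00342 fell together with ANKRD36C (-0.56). Only LINC02574 with IFI6 and LINC00973 with DCBLD2, of these 6 pairs, were called together under every omission of 1 library, and both were also called against siNC replicate 3 alone.

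Both genes were called in opposite directions in 6 pairs, 4 of them within 10 kb, where 1 pair was called in the same direction. Of the 50 pairs within 10 kb, 10 LINC rows and 23 neighbours (46%) were called. Whether direction depends on distance was not tested. LINC01137, of 3 exons at chr1:37454879-37474411, minus strand, starts 141 bases from ZC3H12A, which is transcribed away from it and encodes an RNase that degrades inflammatory messenger RNAs. LINC01137 had 2.14, 1.49 and 1.37 CPM in the siSF3B6 libraries, against 3.05, 2.35 and 2.53 CPM in the siNC libraries (log2 fold change -0.67, SE 0.209, edgeR adjusted p = 0.0201), whereas ZC3H12A had 47.8, 48.4 and 44.2 CPM in the siSF3B6 libraries, against 28.1, 28.6 and 25.8 CPM in the siNC libraries (log2 fold change 0.77, SE 0.0850, edgeR adjusted p = 2.12e-05). The fall of LINC01137 did not pass against siNC replicate 3 alone (-0.62, adjusted p = 0.184), while the rise of ZC3H12A did (0.85, adjusted p = 0.00269).

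LINC00926 lies 1084 bases beyond TCF12, which encodes a basic helix-loop-helix transcription factor, and TCF12 had 33.7, 33.2 and 36.3 CPM in the siSF3B6 libraries, against 26.7, 24.8 and 27.7 CPM in the siNC libraries (log2 fold change 0.38). That pair was called under every omission of 1 library, as was LINC01011 with NQO2. Against siNC replicate 3 alone neither pair was called together: the edgeR adjusted p was 0.156 for LINC00926, 0.168 for TCF12 and 0.159 for NQO2, while LINC01011 passed (0.0433). LINC01011 overlaps NQO2, which encodes a quinone reductase, and rose (log2 fold change 0.88), while NQO2 fell to 57.8 CPM in siSF3B6, against 70.7 CPM in siNC libraries (log2 fold change -0.29). Both genes lie on the plus strand, with starts at chr6:2987967 and chr6:2987987. LINC01011 shares 10.4% of its exonic bases with other genes on that strand, so reads could be divided between the rows. LINC01311 lies 2736 bases from SLC25A1, which encodes the mitochondrial citrate carrier and had 117, 115 and 90.4 CPM in the siSF3B6 libraries, against 186, 191 and 168 CPM in the siNC libraries (log2 fold change -0.76). The other pairs in opposite directions were LINC01003 with KMT2C, which encodes a histone methyltransferase (0.27), and LINC02609 with ZNF644, a zinc finger gene (0.42). Both genes were called under 2 of the 6 omissions of 1 library in LINC01003 with KMT2C, and under 4 in LINC02609 with ZNF644 and in LINC01311 with SLC25A1. Under 3 both were called in LINC01137 with ZC3H12A.

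Other nearest coding genes were called while their LINC rows were not. NFKBIZ, which encodes a regulator of NF-kB, had a log2 fold change of 1.24, and LINC02085, 79837 bases away, had -0.08. LINC02085 shares 91.9% of its exonic bases with other annotated genes on the same strand, so reads could be divided between them. KMT2E, a gene of the histone methyltransferase family that starts 1135 bases from LINC01004, had 1.17, and LINC01004 had -0.09 ± 0.206 (SE) from 49 mean reads. CDC42, the gene of a small GTPase, had -0.72, and LINC00339 had -0.27. The difference within these pairs was not tested.

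The promoter table was also searched for the AP-1 site TGANTCA, the motif of the FOS and JUN factors, on either strand. It was in the windows of 15 of the 93 LINC symbols found (16.1%), and by window in 16.4% of 110, against 7.71% of all 35116 windows. A symbol counted once if any of its windows held the site, so symbols with more windows had more chances. LINC00973 and LINC01615 held it in multiple windows. By call, 4 of 16 higher, 0 of 7 lower and 11 of 70 uncalled symbols held it, and no test was made. The windows of the 4 higher rows are shown, with the site in capitals, 5′ to 3′, from RefSeq (GRCh38.p14). For LINC00973, which has several starts in the table, it is the window of the start nearest to the GENCODE gene. The LINC00460 window surrounds a RefSeq start that lies inside the GENCODE gene, chr13:106374477-106384315.
LINC00973, chr3:98980805-98981104, plus strand: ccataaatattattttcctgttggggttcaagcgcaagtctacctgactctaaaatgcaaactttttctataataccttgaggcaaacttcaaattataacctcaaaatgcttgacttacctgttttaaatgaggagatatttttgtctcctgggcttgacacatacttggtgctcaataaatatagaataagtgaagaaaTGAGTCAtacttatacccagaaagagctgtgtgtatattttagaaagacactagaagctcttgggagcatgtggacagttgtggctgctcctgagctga
LINC00460, chr13:106376314-106376613, plus strand: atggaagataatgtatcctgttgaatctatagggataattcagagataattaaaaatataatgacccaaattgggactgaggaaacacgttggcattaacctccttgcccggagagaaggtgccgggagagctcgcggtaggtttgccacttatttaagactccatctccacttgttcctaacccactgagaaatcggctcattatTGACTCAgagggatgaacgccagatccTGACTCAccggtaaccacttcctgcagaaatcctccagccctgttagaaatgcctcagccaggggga
LINC00702, chr10:4243863-4244162, minus strand: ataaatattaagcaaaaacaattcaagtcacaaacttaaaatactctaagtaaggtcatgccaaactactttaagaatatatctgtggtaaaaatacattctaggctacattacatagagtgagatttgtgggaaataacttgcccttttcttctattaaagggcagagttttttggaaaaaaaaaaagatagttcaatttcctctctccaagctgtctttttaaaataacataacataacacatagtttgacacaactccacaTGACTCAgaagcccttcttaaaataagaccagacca
LINC01929, chr18:55124257-55124556, minus strand: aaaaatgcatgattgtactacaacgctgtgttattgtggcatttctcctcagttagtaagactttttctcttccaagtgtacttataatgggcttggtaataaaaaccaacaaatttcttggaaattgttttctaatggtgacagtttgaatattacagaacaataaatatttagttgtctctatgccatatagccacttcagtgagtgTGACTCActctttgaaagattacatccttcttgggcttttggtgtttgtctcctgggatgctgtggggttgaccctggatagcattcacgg
The site begins 49 bases before the start in LINC00973, 44 and 17 bases before it in LINC00460, 14 bases after it in LINC00702 and 41 bases before it in LINC01929. The cAMP-response element, searched as TGACGTCA, was in the windows of 2 of the 93 symbols (LINC00265 and LINC00630), against 1.85% of all windows.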

How the data were processed

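Polyadenylated RNA was measured in 3 siSF3B6 and 3 siNC libraries, grouped by sample title. The cell line field counts upward across samples, and the titles, all MDA-MB-231, were used. The authors deposited whole-number read counts per gene, not normalized, and FPKM values. The submitters' processing notes name HISAT2, DESeq2 and build hg38. Which counter and annotation release were used, and whether by strand, is not given in the sources used here; overlapping genes could share reads.

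The LINC rows and all lists were chosen with earlier results of these data known. Counts were tested with edgeR 4.0.16 in R 4.3.3 (filterByExpr, TMM factors, quasi-likelihood test, siSF3B6 against siNC, no block), with Benjamini-Hochberg adjustment over 16869 genes and a threshold of 0.05. All 128 rows passed the filter. The SE was obtained from the F statistic (absolute log2 fold change over its square root). Named were SF3B6, the 10 largest called differences each way with groups that do not overlap, the 8 highest rows by FPKM, 20 often studied symbols (LINC02574 was added to them by name), the neighbours of those rows and the 3 rows on each side of the read threshold; every other called row and some pairs were named after their values were seen. Positions, exons and exonic overlap are from GENCODE release 29 (GRCh38), matched by unversioned identifier for all 128 rows; promoters are from RefSeq. Alternatives were DESeq2 1.42.0, limma 3.58.1 (voom, and log2 of FPKM plus 1 or 0.1), other scalings and filters, a GC and length offset (lowess span 0.3), a replicate block, omission of libraries, and read thresholds of 10 or 100.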

Additional observations from a re-analysis of the deposited data

How the results depend on the processing

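Read depth was low, with 69 of the 128 LINC rows under 100 mean reads. The median SE of those rows was 0.218, against 0.104 in the 26 rows with 300 or more. Depth and spread between libraries were not separated as sources of the SE. Calls for lower rows numbered 14 in the fit reported, 9 with DESeq2, 26 with library size only, 6 with log2(FPKM + 1) without a filter, 3 with siNC replicate 3 as the lone control and 7 among rows of at least 100 reads. For higher rows, 20 in the fit reported, the counts were 9 with log2(FPKM + 1) without a filter, 8 with the lone control and 13 among rows of at least 100 reads. Of all genes, 40.8% were called in the fit reported, 35.3% with DESeq2 and 41.6% with library size only. The share was 9.73% with log2(FPKM + 1) without a filter, and 29.3% to 43.8% when 1 library was omitted. The FPKM filter at a mean of 0.5 left 73 rows. Omitting 1 library gave 15 to 25 higher rows, 9 to 13 lower rows, a median log2 fold change between -0.016 and 0.039, and 2 to 9 neighbour pairs called in the same direction, against 6; the 9 lower rows came without siNC replicate 1, and the pairs were 3 without siSF3B6 replicate 3 and 2 without siNC replicate 2. The median, 0.016 as reported, was -0.0812 with library size only, -0.0303 with log2(FPKM + 1), -0.0548 with log2(FPKM + 0.1), 0.0577 with the libraries numbered 1 and 2 only, and -0.0191 over rows of at least 10 reads. Pairs called in the same direction numbered 3 with log2(FPKM + 1), 3 with log2(FPKM + 0.1), 2 without a filter, 2 with the lone control and 12 with the libraries numbered 1 and 2. SF3B6 kept its direction and call in every setting. The causes were not tested, apart from the fewer rows under the read and FPKM thresholds and the fewer libraries.

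With the replicate block, 23 rows were higher and 15 lower, and 8 pairs were called in the same direction. Of all genes, 47.7% were called with the block, against 40.8% in the fit reported. Deviations from the group means of same-numbered libraries correlated at 0.076, 0.163 and 0.217, and those of other pairs between -0.211 and 0.114. siSF3B6 replicates 2 and 3 correlated best with the siNC library of their own number, and siSF3B6 replicate 1 with siNC replicate 2 (0.114). The labels give no pairing beyond the number, so the fit reported had no block. Whether same-numbered libraries share a batch was not tested.

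Signs turned in 43 values of genes that did not pass the test in the fit reported; of the rows named LINC00941, LINC00941 (ENSG00000235884.4) is meant. With library size only these were LINC00941 (-0.0777), LINC00662 (-0.0498), XRCC5 (-0.0601) and FOXA2 (-0.0467). With the GC and length offset they were LINC01116 (0.0317), LINC00662 (-0.124), SAMD11 (0.108), GAS6 (0.0499), PTBP1 (0.107), XRCC5 (-0.0503) and HNRNPC (-0.024). On the log2(FPKM + 1) scale LINC00941 was at -0.0118 and XRCC5 at -0.00978, with or without the filter, and LINC00662 was at -0.00378 without it. On the log2(FPKM + 0.1) scale LINC00941 was at -0.0111 and XRCC5 at -0.00996. Over the omissions of 1 library LINC01116 ran between -0.0309 and 0.0434, LINC00665 between -0.11 and 0.113, CAPRIN2 between -0.0423 and 0.0487, LINC00941 between -0.0797 and 0.212, LINC00662 between -0.0243 and 0.108, LINC00842 between -0.349 and 0.204, and LINC00467 between -0.135 and 0.0385. Against siNC replicate 3 alone LINC00941 was at -0.304, GAS6 at 0.0884 and XRCC5 at -0.00379. With the libraries numbered 1 and 2 LINC01116 was at 0.0169, LINC00662 at -0.0281, LINC00665 at 0.153, LINC00467 at 0.0191, LINC00842 at 0.366, PTBP1 at 0.0549, SLC16A1 at -0.00769 and GIMAP8 at -0.0353.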

Other observations

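Rows with a LINC symbol that the authors' table does not type as lncRNA were outside the rule, and 7 of them had 30 or more mean reads. LINC00888, typed as a transcribed pseudogene, had 15.7, 17.2 and 17.1 CPM in the siSF3B6 libraries, against 20.3, 18.6 and 20.2 CPM in the siNC libraries (log2 fold change -0.24 ± 0.0908 SE, edgeR adjusted p = 0.0468). The groups did not overlap. The other 6 did not pass, with log2 fold changes from -0.45 (LINC01145) to 0.36 (LINC01085).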
